A study of Homo sapiens with 4 samples.

Results

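The 31 genes described here encode checkpoint and repair proteins of the DNA damage response, and they were taken from the deposited table by gene name: 11 of homologous recombination, 5 of the Fanconi anaemia pathway, 7 of the checkpoint, the 3 GADD45 genes and 5 of base excision or mismatch repair. All 31 names were found, each on 1 row, among 51103 genes, and all 31 were among the 15427 genes that passed a filter on low counts. The libraries were made from polyadenylated RNA of CAL27 and SCC15, 2 established lines of human oral squamous carcinoma, each grown with 10 µM decitabine (5-AZA-CdR, DAC in the labels) or with the solvent DMSO and collected after 48 h. The 4 groups, CAL27 with decitabine, CAL27 with DMSO, SCC15 with decitabine and SCC15 with DMSO, had 1 library each, so the other cell line is the replicate of the treatment and no value has a replicate culture of its own.

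Decitabine is a cytidine analogue that is built into DNA and traps DNA methyltransferases there, which leaves proteins bound covalently to the DNA and lowers methylation as cells divide. Homologous recombination copies an intact sister strand to mend breaks and stalled forks. The Fanconi anaemia proteins unhook crosslinked DNA and pass it to recombination, the kinases ATR and ATM with CHEK1 and CHEK2 hold the cell cycle while this happens, and base excision and mismatch repair deal with damaged or mispaired bases. Many of the recombination and Fanconi genes are transcribed mostly in S phase.

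The libraries held between 14524461 and 17583706 counted reads, and 30 of the 31 genes had at least 100 reads in every library. The exception was GADD45G, with 10 to 44 reads. The libraries labelled SCC15 lacked defining squamous transcripts: KRT5 had 1 read with decitabine and 0 with DMSO there, against 8359 and 8054 in CAL27, and 8 of 15 squamous markers had fewer than 10 reads in the SCC15 decitabine library and 9 in the SCC15 DMSO library. The same libraries had 27011 and 37300 reads of the mesenchymal marker VIM, against 80 and 41 in CAL27. Over the whole lists, the summed level of 15 squamous markers was 217 and 197 FPKM in the SCC15 libraries against 876 and 824 FPKM in CAL27, and that of 15 mesenchymal markers 329 and 504 FPKM against 23.6 and 20.6 FPKM. The squamous list was not uniform, since PERP had 8254 and 7906 reads in the SCC15 libraries against 6785 and 5528 in CAL27. ITGA6 had 7895 and 5784 against 5318 and 6253. Of 12 general epithelial markers, 6 had fewer than 10 reads in the SCC15 decitabine library and 8 in the SCC15 DMSO library. Their summed level was 475 and 337 FPKM against 564 and 627 FPKM, with 24882 and 11498 reads of KRT8 against 15699 and 18888. The mesenchymal list was not uniform either, since CDH2 had 14 and 0 reads in the SCC15 libraries against 786 and 917 in CAL27. TWIST1 had 0 and 0 against 147 and 130. The summed level of 8 neural and endocrine markers was 119 and 59.2 FPKM against 37.3 and 19.7 FPKM, with 2429 and 1040 reads of CHGA against 0 and 0. They are therefore called SCC15-labelled. The part of this identity in the line differences given below was not tested. Mitochondrial transcripts took 4.28% of reads with decitabine and 7.25% with DMSO in CAL27, and 1.52% and 7.6% in SCC15-labelled cells, and their part in the treatment ratios was not tested either.

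No gene of the 31 passed the test for an effect of decitabine shared by both lines (edgeR's quasi-likelihood test with Benjamini-Hochberg adjustment over 15427 genes, in which 0.622% of all genes passed, 0.544% higher and 0.0778% lower), and DESeq2 and limma also called 0 of them. At an unadjusted p of 0.05 in edgeR, 3 of the 31 had a negative fold (RBBP8, PALB2 and XRCC2) and 1 a positive one (GADD45A), while 2.57% of all genes tested were lower and 7.78% higher at that level. The log2 ratio of decitabine over DMSO was under 0 in both lines for 18 of the 31 (58.1%), compared with 26.5% of all genes tested, above 0 in both for 4 (31% of all genes) and of opposite sign for 9 (38.4% of all genes). The median ratio of the 31 was -0.21 in CAL27 and -0.33 in SCC15-labelled cells, beside 0.00 and 0.05 over all genes tested. None of the 31 was 2-fold higher or lower in either line, a size reached by 4.11% (higher) and 1.05% (lower) of genes in CAL27 and by 12.1% (higher) and 5.76% (lower) in SCC15-labelled cells.

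These counts depended on scaling and with base composition. TMM scaling placed the CAL27 ratios 0.136 lower on the log2 scale than library totals did. With library totals 14 of the 31 were under 0 in both lines. The medians over all genes tested were then 0.134 in CAL27 and 0.07 in SCC15-labelled cells. The share of all genes under 0 in both lines was not counted under that scaling. Over all genes, treatment ratios were higher at higher transcript GC content, and the 31 genes were poor in GC, with a median of 42.8% beside 48.2% over all genes tested. With the GC trend removed, 13 of the 31 were under 0 in both lines, compared with 24.9% of all genes, and the median ratio was -0.15 for CAL27 and -0.19 for SCC15-labelled cells.

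Drug-induced loss of methylation acts at CpG sites, so the promoter bases of 4 genes are shown: the pair with the lowest sum of both lines' ratios (RBBP8 and PALB2) and the pair with the highest among genes with a promoter entry (XRCC1 and GADD45B). Each is the 250 bases before the RefSeq start (the first listed) on GRCh38.p14, with capitals marking CpG: RBBP8 at chr18:22933078-22933327 on the plus strand, PALB2 at chr16:23641311-23641560 on the minus strand, XRCC1 at chr19:43575528-43575777 on the minus strand and GADD45B at chr19:2475877-2476126 on the plus strand. The RBBP8 and XRCC1 starts used by RefSeq, and the stretches printed for them, lie inside the genes as GENCODE bounds them.
RBBP8: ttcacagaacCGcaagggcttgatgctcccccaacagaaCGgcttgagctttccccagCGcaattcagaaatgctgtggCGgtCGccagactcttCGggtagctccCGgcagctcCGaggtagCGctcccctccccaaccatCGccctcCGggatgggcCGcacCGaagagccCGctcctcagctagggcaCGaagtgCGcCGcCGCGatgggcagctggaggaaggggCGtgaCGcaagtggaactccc
PALB2: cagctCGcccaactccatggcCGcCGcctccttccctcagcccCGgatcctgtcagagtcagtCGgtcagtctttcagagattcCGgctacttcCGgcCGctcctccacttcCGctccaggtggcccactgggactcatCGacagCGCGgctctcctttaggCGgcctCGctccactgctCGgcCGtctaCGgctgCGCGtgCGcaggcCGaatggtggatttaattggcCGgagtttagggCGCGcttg
XRCC1: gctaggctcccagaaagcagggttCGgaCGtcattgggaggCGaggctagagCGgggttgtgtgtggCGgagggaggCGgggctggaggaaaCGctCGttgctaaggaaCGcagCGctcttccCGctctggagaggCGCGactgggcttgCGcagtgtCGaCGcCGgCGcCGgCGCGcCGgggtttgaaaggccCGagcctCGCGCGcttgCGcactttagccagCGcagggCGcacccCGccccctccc
GADD45B: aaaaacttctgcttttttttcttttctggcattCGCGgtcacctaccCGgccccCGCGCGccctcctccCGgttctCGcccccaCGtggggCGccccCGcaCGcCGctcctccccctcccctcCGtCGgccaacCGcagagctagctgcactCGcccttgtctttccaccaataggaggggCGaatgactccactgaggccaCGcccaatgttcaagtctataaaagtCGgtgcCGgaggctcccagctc

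All 4 stretches are rich in CpG, with 21 in RBBP8, 24 in PALB2, 30 in XRCC1 and 21 in GADD45B. A promoter window of 300 bases (250 before and 50 after the start) was found for 29 of the 31 genes, without GADD45A and FANCI. These windows held 12 to 41 CpG with a median of 29, compared with a median of 26 in the 10865 windows of genes tested and 14 in all 27303 RefSeq windows. CHEK1 had the fewest and RAD9A the most. The letters of the E2F type searched on both strands (TTTGGCGC, TTTCCCGC, TTTCGCGC or TTTGCCGC) stood in 6 of the 29 windows (20.7%), those of EXO1, FANCA, FANCD2, MSH6, TOPBP1 and XRCC2, compared with 3.33% of all windows and 5.32% of those of genes tested. The letters CCAAT stood in 16 of 29 (55.2%), against 35.7% of all windows and 36.2% of those of genes tested. The CHR letters TTTGAA stood in 3 (10.3%, against 15.4% and 9.68%), and the NRF1 motif in 0 (against 1.36% and 2.19%). Over the same 300 bases RBBP8 had 33 CpG, PALB2 30, XRCC1 31 and GADD45B 27. The genes at the low and the high end of the summed ratios thus all lay near the median of the set. The high pair was not high throughout, since GADD45B had ratios of 0.93 in CAL27 and -0.33 in SCC15-labelled cells. With the GC trend removed the ratios were 0.77 and -0.85 for GADD45B and 0.05 and 0.03 for XRCC1.

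Per length, the 31 genes spanned a wide range of levels. APEX1, the main endonuclease at abasic sites, was the most abundant, with 208 and 219 FPKM in CAL27 with decitabine and with DMSO and 144 and 129 FPKM in SCC15-labelled cells. PARP1, the enzyme that marks strand breaks with poly(ADP-ribose), came next with 64.6 and 70.4 FPKM in CAL27 and 45.8 and 35.2 FPKM in SCC15-labelled cells. A mean over the 4 libraries of 10 to 30 FPKM was seen for 9 genes, among them RAD51AP1, TOPBP1, FANCI and MSH6, and 20 genes were under 10 FPKM. At the low end stood ATM, whose FPKM lay between 1.38 and 2.28 in the 4 libraries, and GADD45G, with 0.43 to 2.26 FPKM. The exons of 19 of the 31 genes overlap those of another annotated gene, 17 of them on the opposite strand, and the strand setting of the counting is not given in the sources used here, so these counts may hold or lose reads of a partner. The genes concerned are APEX1, ATM, ATR, BRCA1, CHEK1, CHEK2, FANCA, FANCD2, FANCI, MSH6, PALB2, PARP2, RAD1, RAD54L, RAD9A, RBBP8, TOPBP1, XRCC1 and XRCC3. They include 6 of the 7 with a line difference past the threshold, with NPAT and C11orf65 as partners of ATM, POLG of FANCI, STT3A of CHEK1, LRRC41 of RAD54L, FANCD2OS of FANCD2 and a pair of antisense genes of PARP2.

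**Figure D1:**
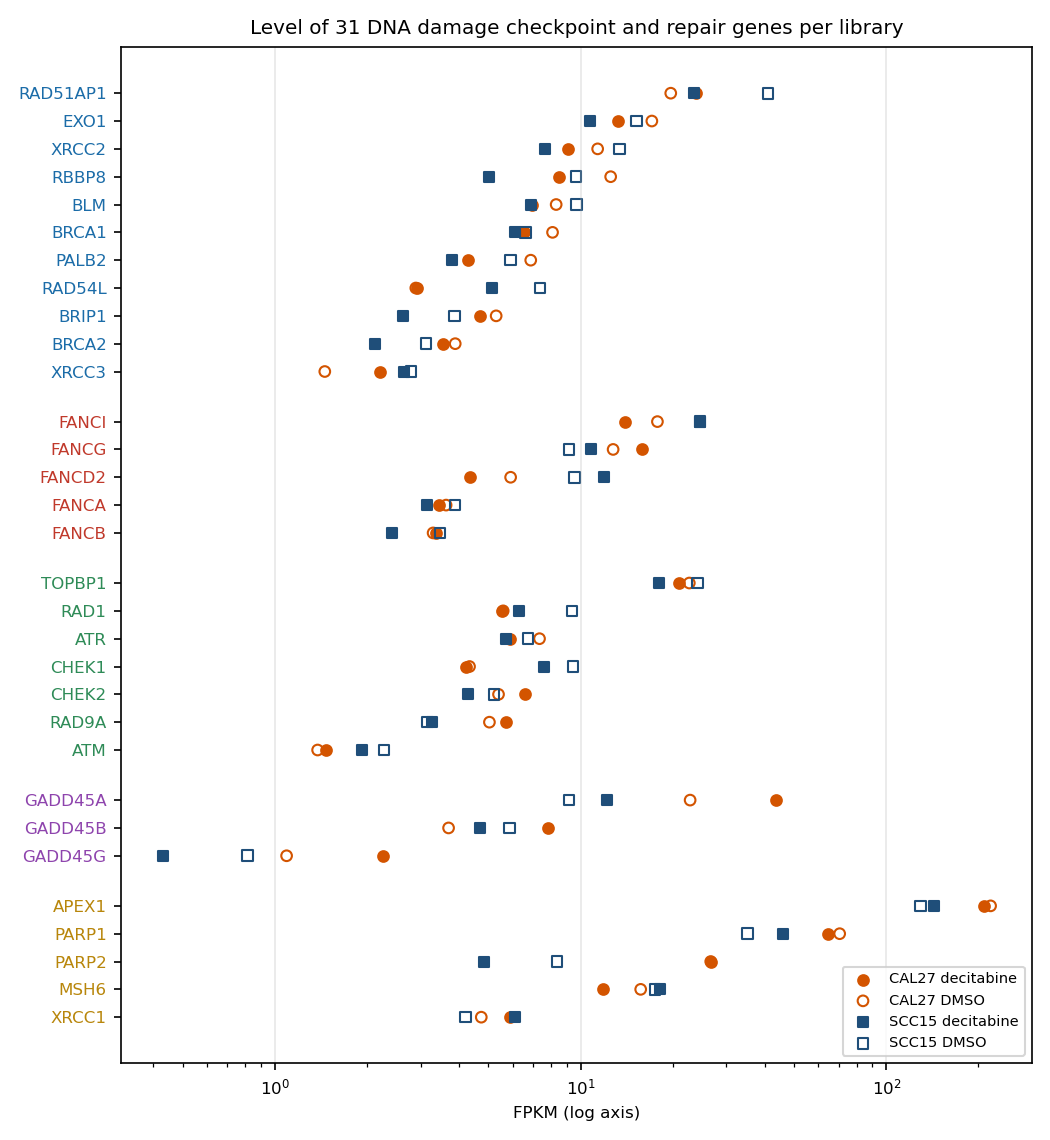
FPKM (log axis) of the 31 genes in the 4 libraries, with genes grouped by role and ordered by mean level within a role; filled symbols are decitabine, open symbols DMSO, circles CAL27 and squares SCC15. APEX1 lies above 129 FPKM in all 4 libraries, and PARP2 and GADD45A show the widest gaps between circles and squares.

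Homologous recombination genes mostly had ratios under 0. In SCC15-labelled cells all 11 ratios were under 0, with a median of -0.57, and in CAL27 9 of 11 were under 0, with a median of -0.40. Once GC was accounted for, the median was -0.24 in SCC15-labelled cells and -0.30 in CAL27, the number under 0 in both lines was 7 in place of 9, and BRCA1 and BRCA2 lay above 0 in SCC15-labelled cells. Over all genes tested, 44.7% were under 0 in SCC15-labelled cells and 48.6% in CAL27. The 95% counting interval, which covers counting error only, lay below 0 for 9 of the 11 in SCC15-labelled cells (28.9% of all genes tested) and for 8 in CAL27 (25.5% of all genes). None passed the test over both lines.

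RBBP8 (ENSG00000101773, chromosome 18, 22798261 to 23026488), which encodes the end-resection factor CtIP, had the lowest TMM-scaled ratio of the set in SCC15-labelled cells. It had 39.2 CPM with decitabine and 63.8 CPM with DMSO in CAL27, and 26.8 and 52.2 CPM in SCC15-labelled cells. Both decitabine libraries were thus below both DMSO libraries. The log2 ratios were -0.70 (counting interval -0.85 to -0.55) and -0.96 (-1.13 to -0.79). The shared log2 fold was -0.83 ± 0.29 (SE of the moderated fit) with an adjusted p of 0.24 in edgeR, and -0.59 with the GC trend removed.

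PALB2 (ENSG00000083093, chromosome 16, 23603160 to 23641310), the bridge between BRCA1 and BRCA2, had the lowest ratio of the set in CAL27. Its levels were 18.4 CPM with decitabine and 32.6 CPM with DMSO in CAL27, and 18.9 and 29.7 CPM in SCC15-labelled cells. The 2 lines thus stood at nearly the same level under each condition. The ratios were -0.82 (-1.03 to -0.61) and -0.65 (-0.87 to -0.44), with a shared fold of -0.74 ± 0.32 (edgeR adjusted p = 0.40). Removing the GC trend gave -0.72 and -0.39, and a shared fold of -0.56.

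EXO1, an exonuclease of resection and mismatch repair, had 49.8 CPM with decitabine and 70.7 CPM with DMSO in CAL27, and 46.8 and 66.8 CPM in SCC15-labelled cells. Its ratios were -0.51 and -0.51, or -0.41 and -0.24 with the GC trend removed, and the shared fold was -0.51 ± 0.28 (edgeR adjusted p = 0.55). XRCC2, a gene of strand exchange, had 40.2 and 55.1 CPM in CAL27 and 38.9 and 69.1 CPM in SCC15-labelled cells, decitabine before DMSO in each pair. Its shared fold was -0.64 ± 0.29 (edgeR adjusted p = 0.42), and with the GC trend removed it was -0.40, no longer under an unadjusted p of 0.05. The decitabine libraries lay below the DMSO libraries for EXO1 and XRCC2 too. This order was not particular to them and RBBP8, since it also held for PALB2, BLM, BRCA1, BRCA2, FANCA, FANCB, ATR and TOPBP1. For BRCA2 the gap was narrow, with 39.5 CPM in the CAL27 decitabine library and 40.7 CPM in the SCC15 DMSO library. It was narrow for FANCB too, and XRCC1 had the reverse order. The share of all genes with either order was not counted, so the order cannot be read as a shared decrease. None of these genes passed the test over both lines.

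The helicase genes BLM (-0.40 in CAL27 and -0.51 in SCC15-labelled cells) and BRIP1 (-0.32 and -0.57) and the recombination mediator BRCA2 (-0.27 and -0.57) had counting intervals under 0 in both lines. For BRCA2 the SCC15-labelled ratio with the GC trend removed was 0.01, and for BRIP1 it was -0.07. BRCA1, whose protein starts recombination and signals at breaks, had -0.44 in CAL27 and -0.13 (counting interval -0.26 to 0.0049) in SCC15-labelled cells. With the GC trend removed the second of these was 0.17.

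The other 3 recombination genes had less even ratios, and the difference between the lines was not tested. RAD51AP1, whose product promotes the pairing of DNA strands, had 55.3 CPM with decitabine and 50.4 CPM with DMSO in CAL27, and 62.9 and 111 CPM in SCC15-labelled cells. The SCC15 DMSO library was the high one of the 4. Its ratios were 0.14 (-0.01 to 0.28) and -0.82 (-0.94 to -0.71), and the second was -0.23 with the GC trend removed. RAD54L, a motor protein of strand exchange, had -0.12 (-0.48 to 0.23) in CAL27 and -0.53 (-0.76 to -0.30) in SCC15-labelled cells. XRCC3, which acts in strand exchange too, had 0.46 (0.17 to 0.76) and -0.09 (-0.32 to 0.13), or 0.21 and -0.64 with the GC trend removed.

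**Figure D2:**
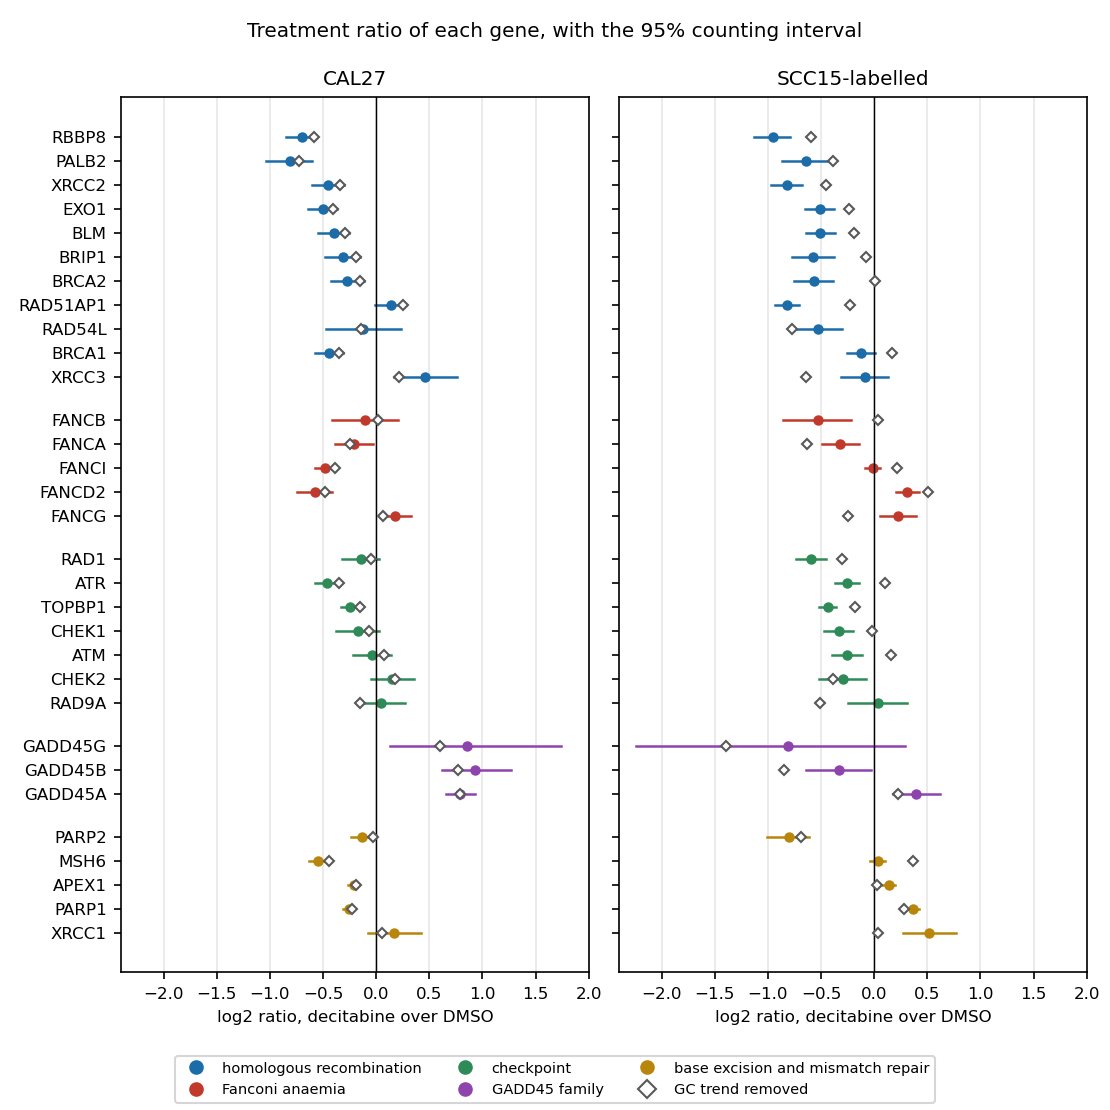
Log2 ratio of decitabine over DMSO for each of the 31 genes in CAL27 (left) and SCC15-labelled cells (right); filled points are TMM-scaled ratios, bars their 95% counting intervals and open diamonds the ratios with the GC trend removed. In SCC15-labelled cells the 11 recombination genes lie left of 0 and most diamonds of that group lie nearer to 0, while the 3 GADD45 genes lie right of 0 in CAL27.

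The 5 genes grouped here under Fanconi anaemia did not share a direction. Each gene was placed in a single role group, so this does not speak of Fanconi genes placed under recombination. FANCD2, which with FANCI forms the clamp that is ubiquitinated at crosslinks, had 535 reads with decitabine and 719 with DMSO in CAL27, and 1762 and 1186 reads in SCC15-labelled cells. The decitabine library was thus the lower one in CAL27 and the higher one in SCC15-labelled cells. The ratios were -0.58 (-0.75 to -0.42) and 0.31 (0.20 to 0.42). FANCI, the clamp's other subunit, had 98.9 and 138 CPM in CAL27, a ratio of -0.48, and 200 and 203 CPM in SCC15-labelled cells, a ratio of -0.02 (-0.09 to 0.06). The core complex genes FANCA (-0.21 and -0.32) and FANCB (-0.10 and -0.53) were under 0 in both lines, although the CAL27 counting interval of FANCB held 0. With the GC trend removed FANCA was at -0.25 and -0.64, and FANCB was above 0, at 0.013 and 0.037. FANCG, also a core complex subunit, was above 0 in both, at 0.18 (0.03 to 0.33) and 0.22 (0.06 to 0.40). For FANCG the SCC15-labelled ratio was -0.25 with the GC trend removed.

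The 7 checkpoint genes had ratios between -0.46 and 0.15 in CAL27 and between -0.60 and 0.03 in SCC15-labelled cells, with medians of -0.14 and -0.30. ATR, the kinase of stalled forks, had 66.6 CPM with decitabine and 91.6 CPM with DMSO in CAL27, and 74.6 and 89.2 CPM in SCC15-labelled cells. Its ratios were -0.46 and -0.26, and 0.10 in SCC15-labelled cells with the GC trend removed. TOPBP1, the activator of ATR, had -0.25 (-0.33 to -0.16) and -0.44 (-0.52 to -0.36). ATR and TOPBP1 were the checkpoint genes with counting intervals under 0 in both lines.

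RAD1 and RAD9A encode subunits of the checkpoint clamp that recruits TOPBP1. RAD1 had -0.14 (-0.32 to 0.03) in CAL27 and -0.60 (-0.74 to -0.46) in SCC15-labelled cells, and RAD9A had 0.04 and 0.03. Without the GC trend, RAD1 was at -0.05 and -0.31, and RAD9A at -0.15 and -0.51. The kinase genes ATM (-0.04 and -0.25), CHEK1 (-0.17 and -0.33) and CHEK2 (0.15 and -0.30) had counting intervals that held 0 in CAL27 and lay under 0 in SCC15-labelled cells. ATM was at 0.16 and CHEK1 at -0.02 in SCC15-labelled cells with the GC trend removed.

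The GADD45 genes, small stress-response genes whose products bind PCNA and stress kinases, were the members with the largest positive ratios in CAL27. GADD45A (ENSG00000116717, chromosome 1, 67685061 to 67688338), a classical p53 target, had 81.7 CPM with decitabine and 47.1 CPM with DMSO in CAL27, and 26.5 and 20.1 CPM in SCC15-labelled cells. The ratios were 0.79 (0.66 to 0.93) and 0.40 (0.18 to 0.62), or 0.79 and 0.22 with the GC trend removed. The shared fold was 0.60 ± 0.29 (edgeR adjusted p = 0.48). It was the one gene of the family above 0 in both lines.

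GADD45B (ENSG00000099860, chromosome 19, 2476122 to 2478259) had 15.2 CPM with decitabine and 7.90 CPM with DMSO in CAL27, and 10.6 and 13.3 CPM in SCC15-labelled cells. The ratios had opposite signs, 0.93 (0.62 to 1.27) and -0.33 (-0.64 to -0.03). GADD45B crossed the 2-fold line in CAL27 with library totals, at 1.07. For GADD45G, CAL27 gave 44 reads with decitabine and 21 with DMSO, while SCC15-labelled cells gave 10 and 16. At that depth the SCC15-labelled ratio of -0.81 could not be told from 0, with a counting interval of -2.24 to 0.29, while the CAL27 ratio was 0.85 (0.13 to 1.74).

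Of the base excision and mismatch genes, 4 of 5 were under 0 in CAL27 and 1 of 5 in SCC15-labelled cells. PARP1 had 420 CPM with decitabine and 504 CPM with DMSO in CAL27, and 345 and 268 CPM in SCC15-labelled cells. Its ratios were -0.26 (-0.31 to -0.21) and 0.36 (0.30 to 0.42). APEX1 was split the same way at -0.21 (-0.26 to -0.16) and 0.13 (0.07 to 0.20). MSH6, the mismatch recognition subunit, had -0.55 (-0.64 to -0.46) and 0.03 (-0.04 to 0.11), or -0.44 and 0.37 with the GC trend removed.

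PARP2, a relative of PARP1, was under 0 in both lines, with -0.14 (-0.24 to -0.04) in CAL27 and -0.81 (-1.01 to -0.61) in SCC15-labelled cells. With the GC trend removed these were -0.03 and -0.69. XRCC1, the scaffold of single-strand break repair, had 18.4 CPM with decitabine and 16.4 CPM with DMSO in CAL27, and 22.1 and 15.4 CPM in SCC15-labelled cells. Its SCC15-labelled ratio of 0.52 (0.27 to 0.77) was 0.03 with the GC trend removed.

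The ratios of the 31 genes were set against transcript GC, the quantity on which the genome-wide ratios depended. Across the 15427 genes tested, Spearman's rho of the ratio with transcript GC was 0.25 in CAL27 and 0.50 in SCC15-labelled cells, and over the 31 genes it was 0.52 and 0.45. The genes share their libraries, so these are descriptions without a p. Among the 19 of the 31 with GC under the median of all genes, 17 had an SCC15-labelled ratio under 0 and the median was -0.51. With the GC trend removed, 11 of these 19 were under 0 (45.7% of all genes) and their median was -0.07. Among the 12 GC-rich members the median was -0.03 as scaled and -0.45 with the GC trend removed. In CAL27 the medians of the GC-poor members were -0.40 and -0.30.

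**Figure D3:**
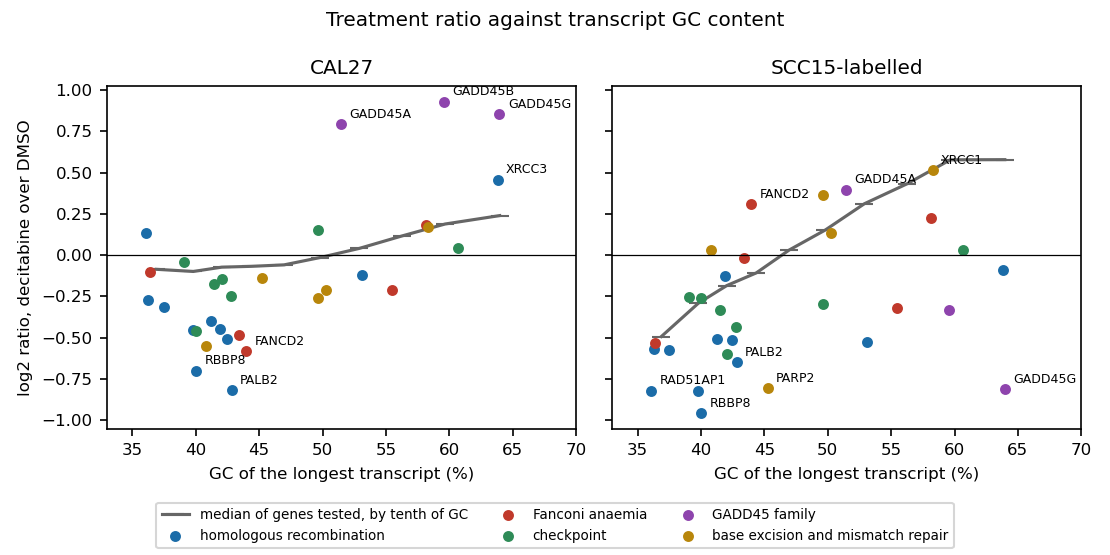
Log2 ratio of decitabine over DMSO against transcript GC (%) in CAL27 (left) and SCC15-labelled cells (right); points are the 31 genes coloured by role and the grey line joins the median ratio of all genes tested in 10 equal classes of GC. Between the lowest and the highest class the grey line spans -0.09 to 0.24 in the CAL27 panel and -0.49 to 0.58 in the SCC15-labelled panel, and RBBP8 lies below it in both.

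Between the cell lines, some of the 31 genes did pass. In the same edgeR fit, 7 of the 31 genes (5 higher and 2 lower in SCC15-labelled cells) passed at an adjusted p of 0.05, compared with 44.2% of all genes tested (21.6% higher and 22.7% lower). Each line's 2 libraries stand for 1 culture lineage, and treatment serves as the replicate.

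PARP2 had the largest difference and was lower in SCC15-labelled cells. It had 20.8 CPM with decitabine and 36.4 CPM with DMSO in SCC15-labelled cells, against 99.1 and 109 CPM in CAL27, a log2 difference of -1.92 ± 0.30 (edgeR adjusted p = 1.36e-06). GADD45A was lower by -1.43 ± 0.30 (edgeR adjusted p = 0.000131), with 26.5 and 20.1 CPM in SCC15-labelled cells against 81.7 and 47.1 CPM in CAL27. For both genes the libraries of the lines did not overlap. That was not particular to them, since it also held for RAD54L, CHEK1, APEX1, PARP1 and MSH6, among others. The share of all genes with no overlap was not counted.

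The 5 genes that were higher in SCC15-labelled cells came from recombination, the Fanconi clamp and the checkpoint. RAD54L had 17.4 CPM with decitabine and 25.1 CPM with DMSO in SCC15-labelled cells, against 8.51 and 9.28 CPM in CAL27, a difference of 1.23 ± 0.36 (edgeR adjusted p = 0.00533). FANCD2 differed by 1.22 ± 0.30 (edgeR adjusted p = 0.000826) and its partner FANCI by 0.78 ± 0.29 (edgeR adjusted p = 0.0246). CHEK1, the effector kinase of ATR, had 52.1 and 65.7 CPM in SCC15-labelled cells against 25.2 and 28.4 CPM in CAL27, a difference of 1.13 ± 0.29 (edgeR adjusted p = 0.00167). ATM, with 48.5 and 57.9 CPM against 32.1 and 33.1 CPM, differed by 0.70 ± 0.29 (edgeR adjusted p = 0.047), a call that was lost under 7 of 9 alternatives, among them library totals (0.55, adjusted p = 0.12 in edgeR). Between an adjusted p of 0.05 and 0.0912 in edgeR stood RAD51AP1 (0.66), XRCC3 (0.74), RAD1 (0.61) and PARP1 (-0.60).

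**Figure D4:**
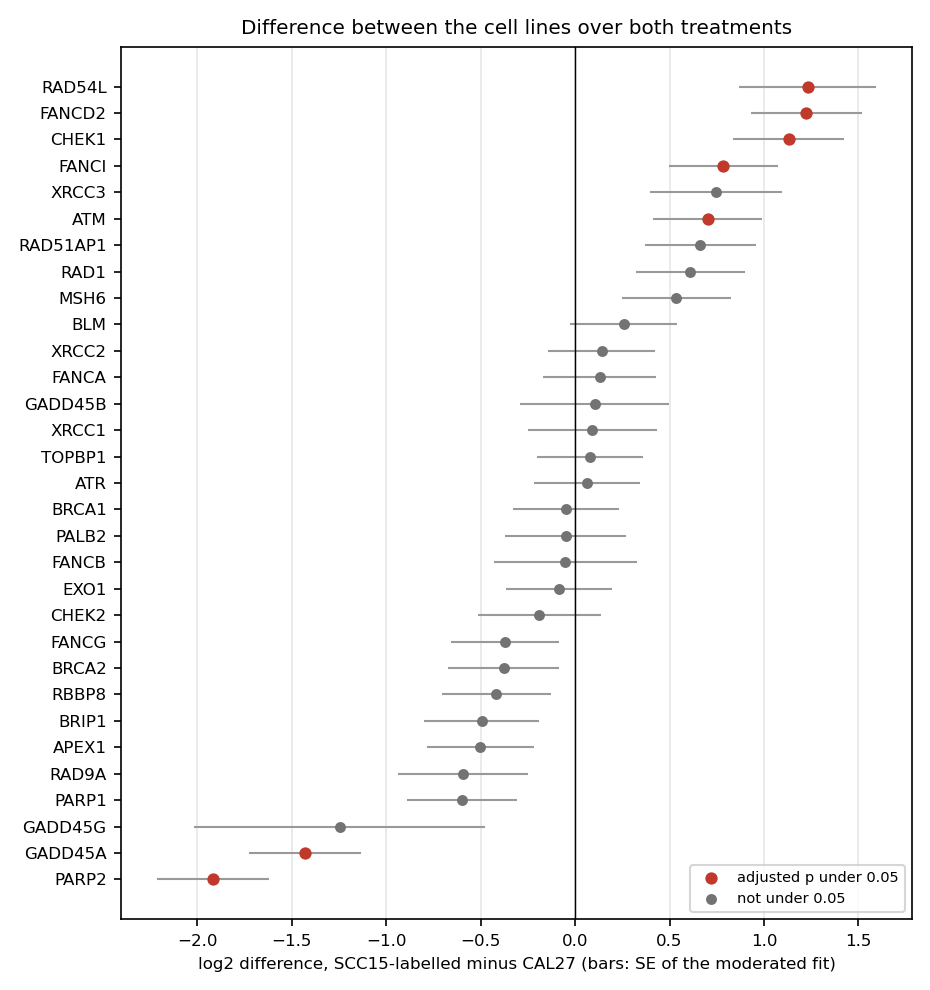
Log2 difference of SCC15-labelled minus CAL27 libraries over both treatments for the 31 genes, ordered from highest to lowest; bars are the SE of the moderated fit and red points have an adjusted p under 0.05. RAD54L, FANCD2, CHEK1 and FANCI stand at the high end, followed by XRCC3 (not past the threshold) and ATM, and GADD45A and PARP2 stand apart on the negative side with GADD45G (not past the threshold).

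Repair genes outside the 31 were counted in the same way. Of 134 further genes of recombination, Fanconi, checkpoint, end joining, base excision, mismatch and nucleotide excision repair, 130 were tested and 0 passed for decitabine in edgeR, DESeq2 or limma, and at an unadjusted p of 0.05 edgeR gave 2 with a positive and 3 with a negative fold. Their median ratios were -0.11 in CAL27 and -0.16 in SCC15-labelled cells, or -0.07 and -0.11 with the GC trend removed. Under 0 in both lines were 56 of the 130, compared with 26.5% of all genes. With the GC trend removed there were 55, compared with 24.9%. Ratios under 0 in both lines were thus not particular to the 31. The lists lowest in CAL27 were mismatch repair (7 genes, -0.21) and end joining (13 tested, -0.18), and nucleotide excision repair was nearest to 0 (23 tested, -0.04 and -0.01). Between the lines, 33 of the 130 were higher and 10 lower in SCC15-labelled cells, compared with 21.6% and 22.7% of all genes.

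Of these, 6 are named for the size of the smaller of their ratios where both lines have 1 sign. PARP3, a further poly(ADP-ribose) polymerase, was the one with positive ratios. It had 196 reads with decitabine and 106 with DMSO in CAL27, and 576 and 237 in SCC15-labelled cells (log2 ratios 0.72 and 1.01, edgeR adjusted p = 0.34). The recombination translocase RAD54B gave 49 and 94 reads for CAL27 and 42 and 54 for SCC15-labelled cells (-1.06 and -0.60). USP1, which removes ubiquitin from the FANCD2 and FANCI clamp, had -0.59 and -0.79, and TIPIN, a fork protection factor, -0.57 and -1.11. TDG, a thymine glycosylase of base excision repair, had -0.48 and -0.49, and BARD1, the partner of BRCA1, -0.44 and -0.44. None of these 6 passed in edgeR.

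Markers of proliferating cells also had ratios under 0 in CAL27. Of 27 such genes (0 passed in edgeR, and 2 had a negative fold at an unadjusted p of 0.05), 23 were under 0 in CAL27, with a median of -0.35, and 12 in SCC15-labelled cells, with a median of 0.04. Over all genes tested, 48.6% were under 0 in CAL27 and 44.7% in SCC15-labelled cells. With the GC trend removed the marker medians were -0.36 in CAL27 and -0.10 in SCC15-labelled cells. The number of markers under 0 in both lines was then 15 in place of 11. The part of proliferation in the repair gene ratios was not tested. In RNA from whole cultures, fewer cells in S phase and less RNA per cell cannot be told apart.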

How the data were processed

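HTSeq 0.13.5, HISAT2 and the build GRCh38 are named, per the submitters' processing notes. The authors deposited raw read counts per gene and FPKM values for each of the 4 libraries. For annotation release and strand setting, nothing is stated in the labels. Counts were tested with edgeR 4.0.16 (R 4.3.3) by its quasi-likelihood test, with TMM scaling, filterByExpr (minimum count 10, minimum total 15) and terms for cell line and treatment. This leaves 1 residual degree of freedom per gene, so the spread is borrowed across genes (36.1 prior degrees of freedom) and p-values speak of 1 culture of each line. The line pairs each decitabine library with its DMSO library, per the labels. Log2 ratios within a line used CPM after TMM scaling, adding a prior count of 2, and have exact conditional binomial 95% intervals for counting error only. A 2-fold call needed 1 CPM in either library. GC content was that of each gene's longest GENCODE transcript, and its loess trend in each library was removed through offsets as an alternative, as were those with DESeq2 1.42.0 and limma 3.58.1 on log2 FPKM. Coordinates of genes are those of GENCODE on GRCh38. The fits were tested on simulated data in which each changed gene had the same fold in both lines. That check did not cover lines that respond differently. The genes and lists were chosen with earlier results of these data known. Genes with a log2 ratio at least 0.5 in size and of 1 sign in both lines, at least 1 in size in either line, or with a line difference past the threshold, were described library by library. EXO1, PALB2 and RBBP8 met the first condition. The detail on XRCC2, GADD45B, GADD45G and other genes was chosen after their values were seen.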

Additional observations from a re-analysis of the deposited data

Results flagged for a closer look

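For 4 of the 31 genes the CAL27 and SCC15-labelled ratios of decitabine over DMSO had opposite signs, each with a counting interval away from 0. FANCD2 had -0.58 in CAL27 and 0.31 in SCC15-labelled cells, and GADD45B had 0.93 and -0.33. APEX1 had -0.21 and 0.13, and PARP1 had -0.26 and 0.36. With 1 library per group the difference between the lines was not tested. Over all genes tested 11% had counting intervals on opposite sides of 0, and 4 of 31 is near that share. With the GC trend removed, the signs were unchanged for these 4 genes, at -0.48 and 0.50 for FANCD2, 0.77 and -0.85 for GADD45B, -0.19 and 0.02 for APEX1 and -0.23 and 0.28 for PARP1.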

How the results depend on the processing

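No member passed the decitabine test under any of the 9 alternatives, with or without the cell line as a replicate block. The genome-wide counts moved: 84 genes were higher and 12 lower, compared with 313 and 21 with library totals, 155 and 21 without a filter, 1 and 1 by limma on log2(FPKM + 1), 163 and 33 with the GC trend removed and 0 and 0 without the replicate block by line. DESeq2 called 27 higher. Signs of shared folds turned with the GC trend removed for GADD45B (-0.0423), GADD45G (-0.29), FANCD2 (0.0164), ATM (0.12), RAD51AP1 (0.0077), FANCB (0.0237), FANCG (-0.0892), XRCC3 (-0.22) and RAD9A (-0.32), 9 of the 31, and for FANCD2 without the block (0.0412); none of these had passed. Within CAL27, 147 genes were 2-fold lower, compared with 96 with library totals and 70 by FPKM ratio, and under each of these settings 1 member, GADD45B, was past 2-fold. Within SCC15-labelled cells, 1647 genes were 2-fold higher, or 1058 with the GC trend removed, where 1 member, GADD45G, was past 2-fold. Between the lines, 5 to 10 members passed. The calls of PARP2, GADD45A, FANCD2, CHEK1 and RAD54L held under all 9 alternatives; FANCI lost its call by limma on log2(FPKM + 1) (adjusted p = 0.0503) and without the treatment block (0.0651). RAD51AP1, RAD1 and MSH6 passed with the GC trend removed, and PARP1 with library totals and by limma. With 1 pair left out, the shared fold is the other line's ratio, given above, with no test. Why the values moved was not tested.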
